A study of Mus musculus with 12 samples.

Results

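The 10 genes described here handle iron in the cell: the lipocalin receptor Slc22a17, its ligand Lcn2, the uptake proteins Tfrc and Slc11a2, the exporter Slc40a1, the ferritin subunits Fth1 and Ftl1, the iron regulatory proteins Ireb2 and Aco1, and the haem-degrading enzyme Hmox1. They were picked by symbol from the 47642 genes of the table, and the set was chosen because Slc22a17 is higher in both mutants than in wild-type cells. Slc22a17 is therefore given as values, without a test in any comparison. All 10 were among the 18552 genes tested, for which the mean over all libraries had to reach 1 normalized count. The wild-type mean of Slc22a17 was 1.5.

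The cells were mIMCD3, an immortalized epithelial line from the inner medullary collecting duct of the mouse. RNA-seq covered 12 libraries, with 4 from unedited wild-type cells and 4 from a single edited clone for each mutant (Pkd1-/- and Pkd2-/-), all without treatment. On its chromosome 17 alleles the Pkd1-/- clone lacks bases 24550055-24594963 and 24550106-24594903, which is almost the whole gene, and the Pkd2-/- clone lacks bases 104478281-104490878 of chromosome 5, the middle part of Pkd2. Of 6 dishes grown per genotype the 4 with the purest RNA were sequenced, 4 days after full confluency, so the replicates are dishes of 1 clone and their p-values do not cover differences between clones.

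Iron enters most cells bound to transferrin through the transferrin receptor (Tfrc) and leaves the endosome through the divalent metal transporter DMT1 (Slc11a2). Ferritin (Fth1 and Ftl1) stores what is not used, and ferroportin (Slc40a1) is the only known iron exporter of mammalian cells. LCN2, also called neutrophil gelatinase-associated lipocalin, binds iron-laden siderophores, is a widely used marker of kidney tubule injury, and is taken up by the receptors SLC22A17 and megalin. The iron regulatory proteins (Aco1 and Ireb2) bind hairpins called iron responsive elements when the cell is short of iron, which blocks translation where the hairpin precedes the coding sequence and protects the mRNA from decay where it follows it.

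The hairpins are shown because they place the members that hold them in 2 classes of control. A script searched every annotated coding transcript (GENCODE M21, GRCm38, sense strand) for C, any 5 bases, CAGTGN, and 5 bases that pair with the first 5, G-T pairs allowed. Of the members, 4 held it. Each sequence is 29 bases, written 5′ to 3′ on the gene's strand, with the loop in capitals. The first 3 lie in the 5′ UTR of Fth1 (chr19:9982732-9982760, plus strand, in 4 of 5 coding transcripts), Ftl1 (chr7:45459779-45459807, minus strand, 1 of 2) and Slc40a1 (chr1:45925465-45925493, minus strand, 1 of 4):
Fth1: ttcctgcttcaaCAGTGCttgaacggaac
Ftl1: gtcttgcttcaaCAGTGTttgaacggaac
Slc40a1: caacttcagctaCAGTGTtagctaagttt
The other 4 lie in the 3′ UTR of Tfrc, in 1 of 3 coding transcripts, on the plus strand at chr16:32631219-32631247, chr16:32631598-32631626, chr16:32631663-32631691 and chr16:32631710-32631738, in this order:
Tfrc: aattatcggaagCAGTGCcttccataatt
Tfrc: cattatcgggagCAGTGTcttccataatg
Tfrc: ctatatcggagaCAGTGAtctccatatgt
Tfrc: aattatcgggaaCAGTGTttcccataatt

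The pattern was found in 565 of 58797 coding transcripts (0.961%) and in 294 of 21901 coding genes (1.34%), so a match alone is not a functional element. It was not found in the coding transcripts of Slc22a17, Lcn2, Slc11a2, Ireb2, Aco1 or Hmox1. The pattern is strict and also missed Epas1, Cdc14a and Cdc42bpa, whose mRNAs are known for such an element. A missing match therefore does not show that an mRNA lacks one. mRNA counts do not measure the translation that the 5′ hairpins control.

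Per library, the normalized counts summed to 25966273 to 28027792 and mitochondrial genes took 1.36% to 3.61% of them. Pkd1 lay at 682 to 883 in wild-type and at 30 to 49 in the library set labelled Pkd1-/-. Total Pkd2 was 3438 to 4467 in wild-type and 3855 to 4135 in Pkd2-/- cells, and because that deletion removes only a part of the gene, the gene total does not check it. Epithelial markers (Cdh1, Epcam, Krt8, Krt18, Cldn4) were all present, with sums of 65157 to 77799. Of 7 collecting duct markers, 3 had a mean of at least 10 (Hoxb7, Gata3, Scnn1a), and the water channel Aqp2, which defines principal cells, was at 0 in all 12 libraries. Some of these markers moved with genotype as Lcn2 did: Gata3, a transcription factor gene on chromosome 2, fell 4.68-fold in Pkd1-/- and rose 1.56-fold in Pkd2-/- cells (limma, adjusted p = 6.34e-10 and 0.000968), and the tight junction gene Cldn4 fell 1.58-fold and rose 1.46-fold (2.11e-07 and 1.18e-06). Scnn1a rose 1.59-fold and Hoxb7 fell 1.44-fold in Pkd2-/- cells (0.000728 and 2.95e-06). Their part in the results was not tested.

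Relative to wild-type, Slc22a17, Lcn2 and Slc40a1 were the members that differed by more than 1 log2 unit in a mutant. Slc22a17 was higher in both mutants, Slc40a1 fell in both, and Lcn2 fell in Pkd1-/- and rose in Pkd2-/- cells. The transferrin receptor and the ferritin heavy chain moved 1.13-fold to 1.16-fold, up in Pkd1-/- and down in Pkd2-/- cells, and Hmox1 fell in both. The ferritin light chain and both iron regulatory proteins did not pass the test against wild-type in either mutant.

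**Figure D1:**
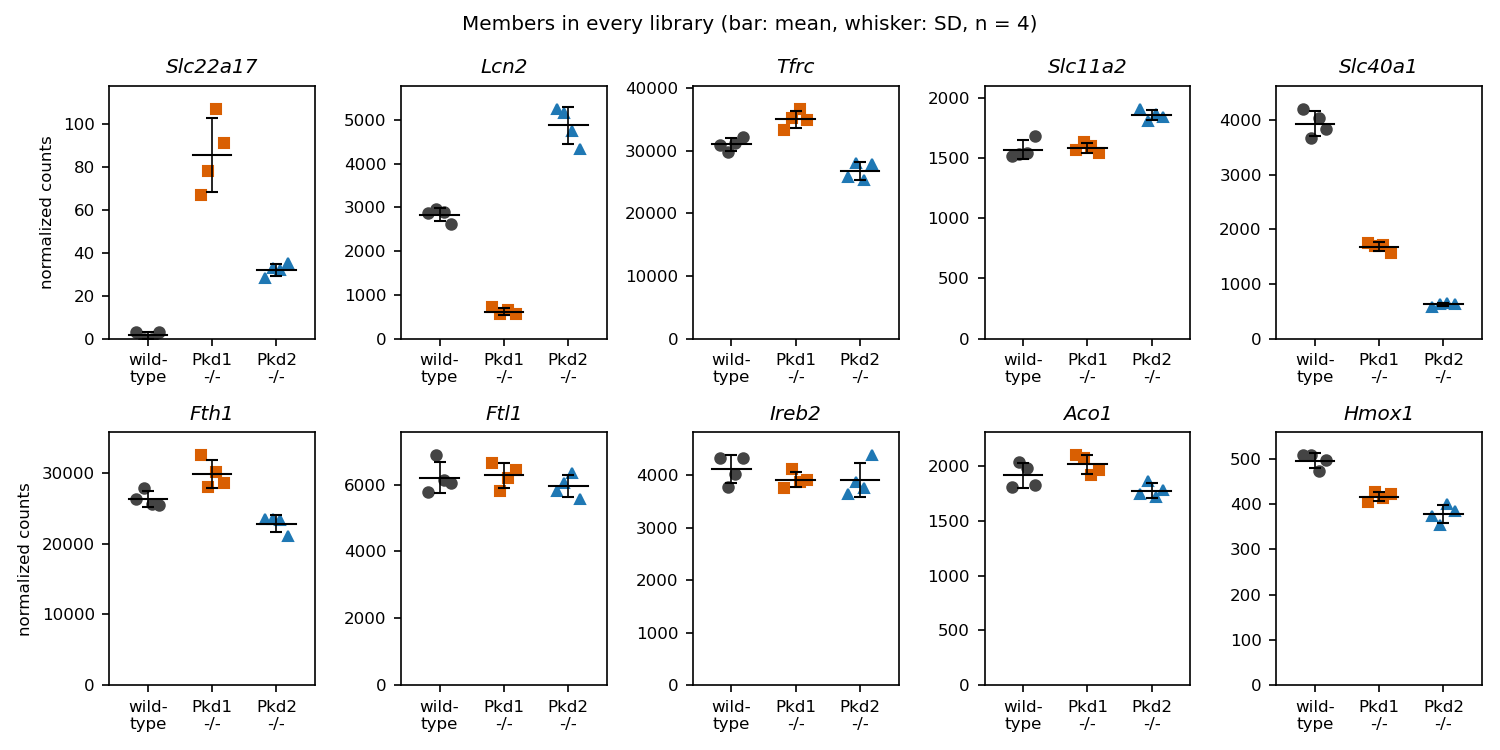
Normalized counts of the 10 members in each of the 12 libraries, 1 panel per gene, each vertical axis starting at 0; points are libraries, the bar is the mean and the whisker the SD of 4. The libraries of the 3 genotypes do not overlap for Lcn2, Tfrc, Slc40a1, Fth1 and Hmox1, nor for Slc22a17, whose rise chose the set. They do overlap for Ftl1 and Ireb2. The share of all genes with such separation is not given here, so the separation is not read as a trait of the members.

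Slc22a17 encodes the lipocalin-2 receptor, a member of the organic cation transporter family, and lies on the minus strand at chr14:54906304-54913132 (GRCm38). Its normalized counts were 3, 0, 0 and 3 in the wild-type libraries, 67, 78, 107 and 91 in Pkd1-/-, and 28, 33, 32 and 35 in Pkd2-/-. Every wild-type library was at or below 3 counts, the most that a count of 0 allows, and every mutant library was at 28 or more. Set against that floor of 3 counts per library, the mean of Pkd1-/- cells was at least 28.6-fold higher, and that of Pkd2-/- cells at least 10.7-fold higher. In RNA from a whole dish, more expressing cells and more RNA per cell cannot be told apart.

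The mutants themselves were apart. Slc22a17 was 85.8 ± 17.2 (SD, n = 4) in Pkd1-/- and 32 ± 2.94 in Pkd2-/- cells, 2.68-fold higher in Pkd1-/-, and the 2 sets of libraries did not overlap. Even so it was the least abundant member in every genotype. Per kilobase of exon the mean was 0.33 (wild-type), 19.0 (Pkd1-/-) and 7.08 (Pkd2-/- cells), against 216 to 284 for Hmox1.

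Megalin (Lrp2), the other receptor for LCN2 and a very large endocytic receptor of the tubule, stood at 483, 474, 520 and 555 in wild-type cells. In Pkd1-/- cells it was 45, 52, 25 and 63, and in Pkd2-/- cells 821, 962, 738 and 1217. The 3 sets of libraries lay wholly apart. Megalin therefore fell 11.0-fold in Pkd1-/- cells (log2 fold change -3.50 ± 0.20 (SE), limma, adjusted p = 1.56e-10) and rose 1.84-fold in Pkd2-/- cells (0.85 ± 0.20, adjusted p = 0.00189). Its co-receptor cubilin (Cubn) was at 2 to 8 in every library.

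Lcn2, at chr2:32384633-32388252 on the minus strand, encodes the secreted ligand. It measured 2862, 2954, 2893 and 2616 in wild-type cells, 710, 558, 643 and 558 in Pkd1-/- and 5249, 5164, 4753 and 4334 in Pkd2-/-. No library of 1 genotype reached the range of another. Lcn2 fell 4.59-fold in Pkd1-/- cells (log2 fold change -2.20 ± 0.08, adjusted p = 1.57e-13) and rose 1.72-fold in Pkd2-/- cells (0.78 ± 0.08, adjusted p = 1.15e-07).

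Between the mutants Lcn2 differed 7.90-fold (log2 fold change 2.98 ± 0.08, adjusted p = 3.68e-16). Ligand and receptor therefore had different orders. Slc22a17 was highest in Pkd1-/- cells, where Lcn2 was lowest. The ratio of Lcn2 to Slc22a17 counts was 7.47 ± 2.14 for Pkd1-/- and 154 ± 26.2 for Pkd2-/- libraries, with no value for wild-type cells because 2 of their libraries were at 0 for the receptor.

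Tfrc, the transferrin receptor at chr16:32608920-32632794 on the plus strand, was the member with the highest counts. It stood at 30953, 29769, 31241 and 32217 in wild-type, 33332, 35232, 36688 and 34852 in Pkd1-/- and 25828, 28103, 25385 and 27894 in Pkd2-/- cells. The 3 ranges did not overlap. The change was small in both directions, 1.13-fold up in Pkd1-/- (log2 fold change 0.17 ± 0.05, adjusted p = 0.011) and 1.16-fold down in Pkd2-/- cells (-0.21 ± 0.05, adjusted p = 0.00141).

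Slc11a2 (chr15:100387898-100425072, minus strand), which carries ferrous iron out of the endosome, was 1520, 1534, 1541 and 1686 in wild-type and 1571, 1636, 1599 and 1540 in Pkd1-/- cells. These ranges overlapped, and the difference did not pass the test (log2 fold change 0.02, 95% interval -0.09 to 0.12, adjusted p = 0.861). The Pkd2-/- libraries, at 1910, 1809, 1872 and 1842, all lay above both other genotypes. Slc11a2 rose 1.18-fold there against wild-type (0.24 ± 0.05, adjusted p = 0.000389). An antisense gene, Gm5475, shares 402 exon bases with it and reached at most 11 counts in any library.

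Slc40a1, which encodes ferroportin at chr1:45908068-45926523 on the minus strand, was the only tested member that passed both thresholds, the adjusted p of 0.05 and the log2 fold change of 1, against wild-type in both mutants. Its counts were 4205, 3668, 4031 and 3844 in wild-type, 1756, 1694, 1718 and 1564 in Pkd1-/- and 575, 624, 654 and 640 in Pkd2-/- cells. The genotypes formed 3 separate levels with an SD of 4.95% to 5.90% of the mean within each. Ferroportin mRNA fell to 42.7% of wild-type in Pkd1-/- cells (log2 fold change -1.23 ± 0.06, adjusted p = 9.39e-12) and to 15.8% in Pkd2-/- cells (-2.66 ± 0.06, adjusted p = 8.52e-17).

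Pkd2-/- cells also lay below Pkd1-/- cells for ferroportin (log2 fold change -1.43 ± 0.06, adjusted p = 2.63e-13). With Tfrc nearly level, the ratio of importer to exporter counts went from 7.90 ± 0.44 for wild-type to 20.9 ± 1.39 for Pkd1-/- and 43.1 ± 2.92 for Pkd2-/-. The lowest mutant ratio, 19.0, was above the highest wild-type ratio, 8.38.

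Fth1 (chr19:9980598-9985098, plus strand) encodes the ferritin heavy chain, which oxidizes iron for storage. It was 26331, 27969, 25705 and 25480 in wild-type, 32543, 28073, 30209 and 28625 in Pkd1-/- and 23493, 23479, 23421 and 21118 in Pkd2-/- cells. The closest wild-type and Pkd1-/- libraries, 27969 and 28073, were nearly equal. Fth1 rose 1.13-fold in Pkd1-/- cells (log2 fold change 0.18 ± 0.05, adjusted p = 0.0191), a call that was lost without wild-type replicate 3 or 4 or Pkd1-/- replicate 1 or 3 (adjusted p 0.0538 to 0.0717). In Pkd2-/- cells Fth1 fell 1.15-fold (-0.21 ± 0.05, adjusted p = 0.00458).

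Ftl1 (chr7:45457944-45459884, minus strand) encodes the ferritin light chain, which helps the iron core form. It ranged from 5770 to 6873 in wild-type, 5801 to 6648 in Pkd1-/- and 5570 to 6345 in Pkd2-/- cells, and the ranges overlapped. Its log2 fold change was 0.02 in Pkd1-/- (95% interval -0.10 to 0.14, adjusted p = 0.875) and -0.06 in Pkd2-/- cells (-0.18 to 0.06, adjusted p = 0.444). The ratio of Fth1 to Ftl1 counts was 4.26 ± 0.21 in wild-type cells, 4.76 ± 0.21 in those without Pkd1 and 3.85 ± 0.15 in those without Pkd2.

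Ferritin genes have processed copies with near-identical sequence, so their counts are uncertain to the extent that reads were split or discarded. The copy Ftl2-ps carried 536 to 682 counts in every library and did not pass the test in either mutant (log2 fold changes -0.02 and -0.05, adjusted p = 0.895 and 0.663). Ftl1-ps1, Ftl1-ps2 and Fth-ps2 held at most 49 counts.

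The iron regulatory proteins varied little. Ireb2 (chr9:54863789-54912530, plus strand), which is degraded when iron is plentiful, averaged 4115 ± 265 (wild-type), 3917 ± 149 (Pkd1-/-) and 3913 ± 324 (Pkd2-/-) (log2 fold changes -0.07 and -0.07, adjusted p = 0.438 and 0.349). Aco1 (chr4:40143081-40198338, plus strand), a cytosolic aconitase that binds RNA once its iron-sulfur cluster is lost, averaged 1914 ± 113, 2015 ± 85.8 and 1776 ± 65.3 in the same order. Its libraries overlapped those of wild-type in both mutants (0.07 and -0.11, adjusted p = 0.338 and 0.115). Aco1 was lower in Pkd2-/- than in Pkd1-/- cells (-0.18 ± 0.05, adjusted p = 0.0079).

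Hmox1 (chr8:75093621-75100589, plus strand) encodes haem oxygenase 1, the inducible enzyme that frees iron from haem. Its counts were 508, 508, 473 and 497 in wild-type, 404, 428, 413 and 423 in Pkd1-/- and 373, 353, 400 and 385 in Pkd2-/- cells. Every mutant library lay below every wild-type library. Hmox1 fell to 84.0% of wild-type in Pkd1-/- (log2 fold change -0.25 ± 0.07, adjusted p = 0.00747) and to 76.1% in Pkd2-/- cells (-0.39 ± 0.07, adjusted p = 7.74e-05). The mutants did not differ past the threshold (-0.14, 95% interval -0.28 to -0.0046, adjusted p = 0.0862).

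**Figure D2:**
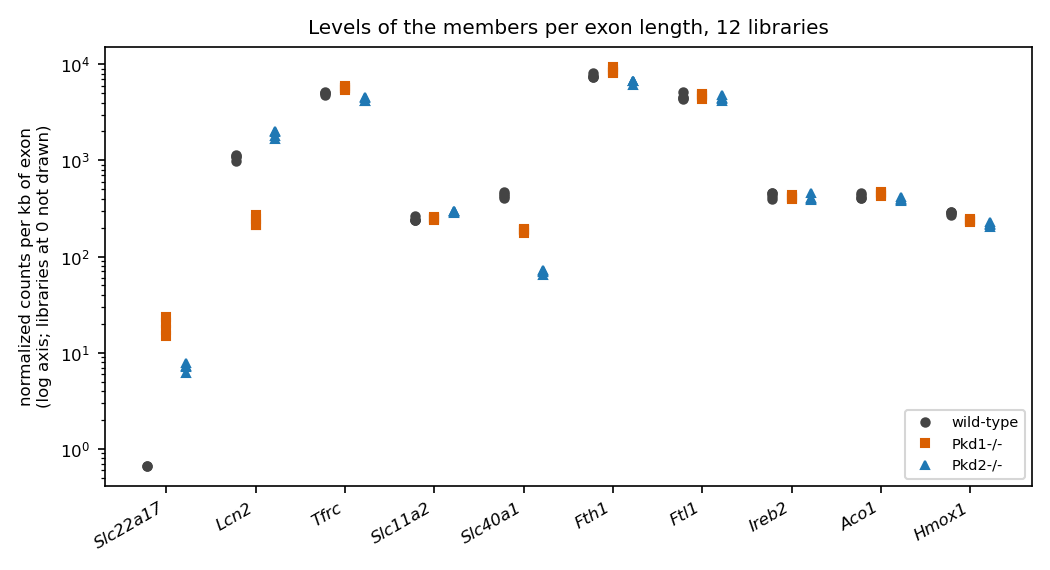
Normalized counts per kilobase of exon for each member in each library, on a log axis; libraries at 0 (2 of wild-type for Slc22a17) are not drawn. Fth1, Tfrc and Ftl1 lie highest, and Slc22a17 lies lowest in all 3 genotypes.

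Per kilobase of exon, the order of levels in wild-type cells was Fth1 with a mean of 7602, Tfrc 5019, Ftl1 4632, Lcn2 1079, Slc40a1 437, Ireb2 434, Aco1 426, Hmox1 284, Slc11a2 247 and Slc22a17 0.33. Tfrc and Ftl1 had overlapping libraries on this scale, as did Slc40a1, Ireb2 and Aco1, and the order within each of these sets cannot be read. In both mutants Slc40a1 lay below every member but Slc22a17, at 187 in Pkd1-/- and 69.2 in Pkd2-/- cells.

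Against wild-type, with Slc22a17 left out, 5 of 9 members passed an adjusted p of 0.05 in Pkd1-/- cells, 2 higher and 3 lower, beside 27.1% of all genes tested (13.6% higher and 13.5% lower). In Pkd2-/- cells 6 of 9 passed, 2 higher and 4 lower, beside 42.3% of all genes (20% higher and 22.3% lower). When a log2 fold change of 1 was also required, the counts were 2 of 9 (all genes 6.24%) and 1 of 9 (9.62%). The median absolute log2 fold change of these 9 members was 0.17 and 0.21, that of all genes tested was 0.21 and 0.30, and that of genes averaging 100 normalized counts or more, as all 9 members do, was 0.14 and 0.22. Apart from Lcn2 and Slc40a1, no tested member changed by more than 0.39 on the log2 scale in either mutant.

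Between the mutants, again with Slc22a17 left out, 6 of 9 members passed, 2 higher and 4 lower in Pkd2-/- cells, beside 46.3% of all genes (21.9% higher and 24.3% lower). Lcn2 and Slc40a1 also passed a log2 fold change of 1, beside 11.8% of all genes. Both comparisons with wild-type use the same 4 wild-type libraries, so their values are not independent of each other.

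**Figure D3:**
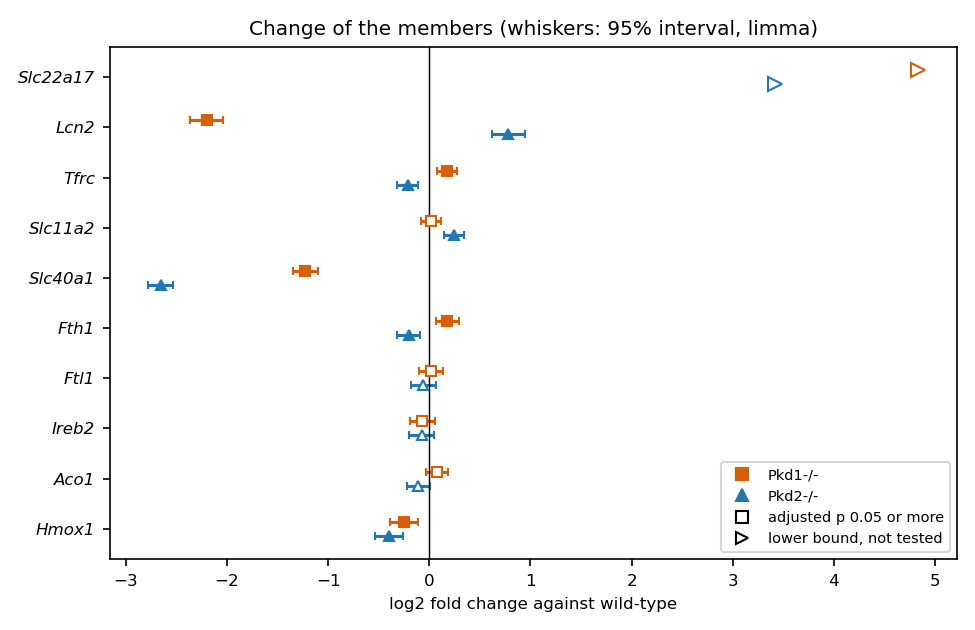
Log2 fold change of each member against wild-type in Pkd1-/- (squares) and Pkd2-/- cells (triangles), with 95% intervals from limma; open symbols did not pass an adjusted p of 0.05. The right-pointing symbols are lower bounds for Slc22a17, which was not tested, and Lcn2, Tfrc and Fth1 lie on opposite sides of 0 in the mutants.

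The wider iron pathway was described with 9 lists of 89 genes, of which 80 were tested and 8 were at 0 in all libraries. In Pkd1-/- cells 29 of the 80 (36.2%) passed, 16 higher and 13 lower, with a median log2 fold change of 0.02 (all genes 0.01). In Pkd2-/- cells 41 (51.2%) passed, 14 higher and 27 lower, with a median of -0.09 (all genes -0.01). These shares stand beside the 27.1% and 42.3% of all genes given above.

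Among 12 tested uptake genes, 5 (41.7%) passed in each mutant, beside 27.1% (Pkd1-/-) and 42.3% (Pkd2-/-) of all genes. Besides megalin, the ferric reductase Steap2 fell 2.01-fold in Pkd1-/- cells, from 2325 ± 179 to 1156 ± 35.8 (adjusted p = 4.85e-09). The lysosomal cation channel Mcoln1, with the highest mean of the list over all 12 libraries (2107, beside 1983 for Steap2), fell in Pkd2-/- cells (-0.28, adjusted p = 0.000331) and averaged 2198 in wild-type and 2315 in Pkd1-/- cells (adjusted p = 0.341). Steap1, a relative of Steap2, fell in Pkd1-/- cells, from 365-414 to 192-236 (-0.85, adjusted p = 1.87e-07), and rose in Pkd2-/- cells to 585-637 (0.67, adjusted p = 1.81e-06). Slc39a8 (ZIP8), which imports zinc, manganese and iron, had the same split. It lay at 148-163 in wild-type, and at 85-117 in Pkd1-/- (-0.56, adjusted p = 0.00046) and 485-554 in Pkd2-/- cells (1.72, adjusted p = 1.72e-10).

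Scara5, a ferritin receptor, and the reductase Cybrd1 also passed both thresholds in 1 mutant each, at very low counts. Scara5 lay at 0 to 5 in wild-type and 2 to 11 in Pkd1-/- cells (adjusted p = 0.043), a call lost in 10 of 19 alternatives, among them without wild-type replicate 2, 3 or 4, Pkd1-/- replicate 2, 3 or 4 or Pkd2-/- replicate 2 (0.0505 to 0.141). Cybrd1 lay at 2 to 5 in wild-type and 6 to 20 in Pkd2-/- cells (adjusted p = 0.0342, 0.149 without Pkd2-/- replicate 4 and 0.0725 and 0.0988 without wild-type replicate 2 or 4). Transferrin itself (Trf) had at most 1 count.

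Ferroportin works with a ferroxidase. Ceruloplasmin (Cp), the main one present, was 218, 142, 166 and 176 in wild-type, 13, 26, 18 and 36 in Pkd1-/- and 230, 247, 221 and 239 in Pkd2-/- cells. It fell 7.55-fold in Pkd1-/- cells (log2 fold change -2.94 ± 0.22, adjusted p = 6.79e-09) and did not pass the test in Pkd2-/- cells (0.43, 95% interval -0.03 to 0.89, adjusted p = 0.132). Hephaestin (Heph) was at 5 or fewer counts in every library, and hepcidin, the hormone that removes ferroportin from the membrane (Hamp and Hamp2), was at 0.

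Of the iron chaperones, which hand iron to ferritin, Pcbp1 and Pcbp2, with genotype means of 10396 to 12411, did not pass the test in either mutant. Pcbp3 lay at 310 to 361 in wild-type, at 0 to 5 in Pkd1-/- (adjusted p = 9.73e-12) and at 185 to 203 in Pkd2-/- cells (adjusted p = 0.0656). Ncoa4, which delivers ferritin for degradation, averaged 416, 415 and 436. Fbxl5, the iron-sensing part of the ligase that degrades Ireb2 protein, fell in Pkd1-/- cells from 2310 ± 69.1 to 1640 ± 78.7 (-0.49, adjusted p = 2.27e-07), and in Pkd2-/- cells it averaged 2386 (adjusted p = 0.481). The ligase subunit Skp1a, the most abundant of its list, fell in Pkd2-/- cells (-0.21, adjusted p = 0.00447).

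The 13 genes of haem synthesis had 3 higher and 2 lower in Pkd1-/- cells and 0 higher and 6 lower in Pkd2-/- cells. These shares of 38.5% and 46.2% stand beside 27.1% and 42.3% of all genes. The medians were 0.03 and -0.18, beside 0.01 and -0.01 over all genes. The largest change was that of Cpox in Pkd1-/- cells, from 2337 ± 73.8 to 1331 ± 11.8 (-0.81, adjusted p = 1.18e-10). The 6 that fell in Pkd2-/- cells included Alas1, Urod, Fech, Tmem14c and Abcb10, and each fell by 0.14 to 0.30 on the log2 scale. The most abundant of the list, Alad, passed in neither mutant (adjusted p = 0.118 and 0.437).

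Of 11 tested genes of haem breakdown and transport, 2 passed in Pkd1-/- cells (1 higher, 1 lower) and 9 in Pkd2-/- cells (2 higher, 7 lower), with medians of -0.05 and -0.48. These shares of 18.2% and 81.8% stand beside 27.1% and 42.3% of all genes, and the medians beside 0.01 and -0.01. Abcg2, an exporter of drugs, porphyrins and haem, was at 25 to 42 in wild-type, 24 to 39 in Pkd1-/- and 0, 0, 0 and 1 in Pkd2-/- cells, and was at least 11.6-fold lower in the last. The lysosomal haem transporter Slc48a1 fell in both mutants (-0.25 and -0.58, adjusted p = 0.000478 and 7.8e-09), as did Hmox1. Blvrb, a biliverdin reductase, fell in Pkd2-/- cells (-0.67, adjusted p = 4.27e-07), where the constitutive haem oxygenase Hmox2 rose (0.38, adjusted p = 3.25e-05). The most abundant of the list, the haem-binding protein gene Pgrmc1, fell in Pkd2-/- cells (-0.20, adjusted p = 0.00107).

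Of 20 genes of mitochondrial iron and iron-sulfur clusters, 7 rose and 1 fell in Pkd1-/- cells, and 3 rose and 5 fell in Pkd2-/- cells. Thus 40% passed in each mutant, beside 27.1% (Pkd1-/-) and 42.3% (Pkd2-/-) of all genes. The most abundant, the chaperone Hspa9, went from 12932 ± 320 to 21161 ± 437 in Pkd2-/- cells (0.71, adjusted p = 3.28e-11). The list of 8 cytosolic iron-sulfur genes had 3 higher and 0 lower in Pkd1-/- and 3 higher and 1 lower in Pkd2-/- cells. These were 37.5% and 50% of the list, beside the same shares of all genes, and none passed a log2 fold change of 1. Ciao1, the most abundant, rose in Pkd2-/- cells (0.16, adjusted p = 0.021).

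The systemic regulators, which in the body set hepcidin, had 5 tested genes. Hfe, which binds the transferrin receptor, was 205 to 265 in wild-type, 128 to 155 in Pkd1-/- and 86 to 132 in Pkd2-/- cells and fell in both (-0.67 and -1.07, adjusted p = 0.000562 and 1.82e-06). Bmp6 was 9 to 20 in wild-type, 0 in all Pkd1-/- libraries (at least 4.42-fold lower) and 2 to 10 in Pkd2-/- cells, where its call (adjusted p = 0.0305) was lost without wild-type replicate 3 or 4 or Pkd2-/- replicate 2, 3 or 4 (0.0537 to 0.126). Tmprss6 fell in Pkd2-/- cells from 25.8 ± 7.59 to 6.75 ± 3.40 (adjusted p = 0.000934), where the most abundant of the list, Neo1, rose (0.45, adjusted p = 5.68e-06).

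**Figure D4:**
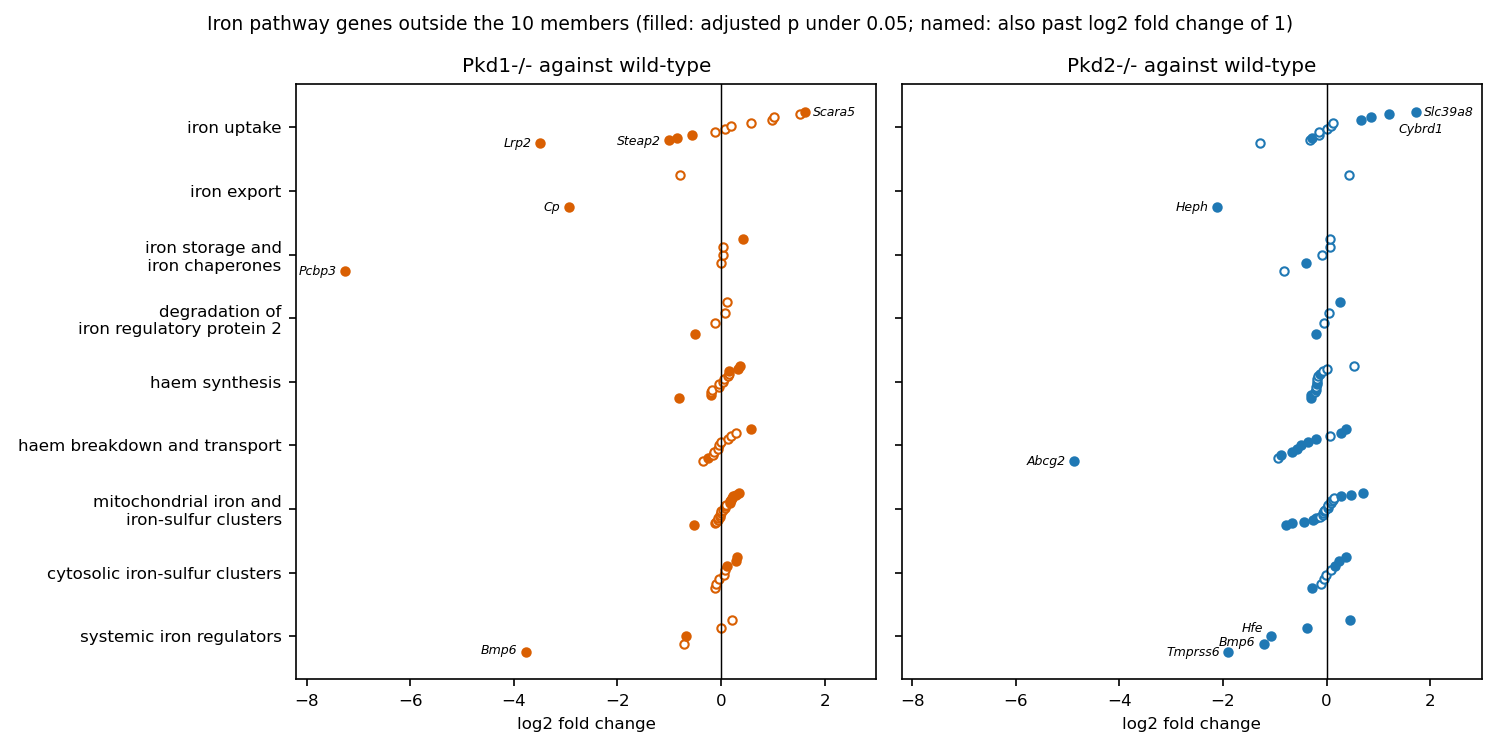
Log2 fold change against wild-type of the tested iron pathway genes outside the 10 members, 1 row per list, in Pkd1-/- (left) and Pkd2-/- cells (right); filled points passed an adjusted p of 0.05 and named ones also a log2 fold change of 1. Most lists lie within 1 log2 unit of 0, and the fitted values of Pcbp3, Bmp6 and Abcg2, which are near 0 counts in a mutant, depend on the pseudocount.

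The relatives of receptor and ligand gave a further reference. Of 24 other Slc22 genes, 14 were at 0 in all libraries and 6 were tested. None of these 6 rose in either mutant, beside 13.6% (Pkd1-/-) and 20% (Pkd2-/-) of all genes. Slc22a4 fell in both, from 283 ± 22.6 to 105 ± 18.1 and 166 ± 13.6 (log2 fold changes -1.43 and -0.77, adjusted p = 4.3e-08 and 4.8e-05). Slc22a15 fell from 17 ± 5.48 to 5 ± 3.16 in Pkd1-/- cells (adjusted p = 0.00329), and the most abundant, Slc22a23, averaged 3755, 3293 and 4051. Slc22a18 lay at 1 to 9 in wild-type and 0 to 3 in Pkd2-/- cells (adjusted p = 0.0462), a call lost in 12 of 19 alternatives, among them without wild-type replicate 1, 2 or 4, Pkd1-/- replicate 2, 3 or 4 or Pkd2-/- replicate 1, 3 or 4 (0.0528 to 0.168).

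Of 20 other lipocalins in the table, 12 were at 0 and 5 were tested. Rbp4, the retinol carrier, lay at 65 to 95 in wild-type, 0 to 5 in Pkd1-/- and 1 to 8 in Pkd2-/- cells (adjusted p = 1.84e-06 and 8.81e-07). Lcn2 was far the most abundant lipocalin, since the others averaged at most 91 in any genotype.

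Of 10 transcription factors and partners known to act on Lcn2 or Hmox1, 6 rose and 1 fell in Pkd2-/- cells, and 1 rose and 2 fell in Pkd1-/- cells. These 7 of 10 and 3 of 10 stand beside 42.3% and 27.1% of all genes. Cebpb, an activator of Lcn2, rose from 802 ± 63.1 to 2160 ± 213 in Pkd2-/- cells (log2 fold change 1.43, adjusted p = 1.18e-11) and averaged 840 in Pkd1-/- cells (adjusted p = 0.55). Nfkbiz, its partner at acute phase genes, rose in Pkd2-/- cells (0.78, adjusted p = 0.00015). Nfe2l2, which activates Hmox1, and Bach1, which represses it, both rose in Pkd2-/- cells (0.92 and 0.44, adjusted p = 5.35e-12 and 0.000153) and both fell in Pkd1-/- cells (-0.20 and -0.55, adjusted p = 0.00177 and 2.52e-05). The most abundant of the list, Hif1a, averaged 9098, 8274 and 7774.

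Of 5 other genes whose mRNAs are known for an iron responsive element, 2 rose in Pkd1-/- and 3 in Pkd2-/- cells, and none fell in either. Of all genes tested, 13.6% and 20% were higher. Epas1 rose in Pkd1-/- cells, from 11-22 to 48-74 (log2 fold change 1.62 ± 0.29, adjusted p = 0.00025), and lay at 10 to 23 in Pkd2-/- cells. The pattern searched for above was not found in its coding transcript.

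The members were also set beside the genes around them. The 50 genes within 1 Mb of Slc22a17 that had a mean of 10 or more showed median log2 fold changes of -0.01 (Pkd1-/-) and -0.13 (Pkd2-/-). There were 4 tested genes within 100 kb, and of these Pabpn1 rose in Pkd1-/- cells (0.43, adjusted p = 0.000253), while Ppp1r3e rose (0.50, adjusted p = 0.00318) and Homez fell (-0.34, adjusted p = 0.000222) in Pkd2-/- cells. The fourth, Bcl2l2, passed in neither (adjusted p = 0.76 and 0.821).

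Around Lcn2 the picture differed between the mutants. In Pkd2-/- cells the 37 neighbors within 1 Mb had a median of 0.46, and 1057 genes of chromosome 2 a median of 0.33, beside the 0.78 of Lcn2, and 7 of the 37 changed at least as far in either direction. Ciz1 (0.90), Slc25a25 (0.92) and Ptges2 (0.63) lie within 100 kb and rose as well (adjusted p = 7.29e-08, 1.48e-07 and 3.69e-06; named after their values were seen). How much of the rise of Lcn2 in Pkd2-/- cells goes with its region was not tested. In Pkd1-/- cells the neighbor median was 0.07, beside -2.20 for Lcn2, and 1 of 37 changed further. Among the listed genes, 11 that were tested lie on chromosome 2. Of these, 8 rose and 0 fell in Pkd2-/- cells: Lrp2 (0.85), Cybrd1 (1.20), Cebpb (1.43), Nfe2l2 (0.92), C8g (0.56) and Ndor1 (0.38) lay above the chromosome's median of 0.33, and Nfs1 (0.28) and Ciao1 (0.16) below it. The part of the chromosome in these values was not tested.

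The 8 neighbors of Slc40a1 had medians of -0.03 and -0.31, with 1 gene in each mutant that changed further, Col3a1 in Pkd1-/- (up) and Dnah7b in Pkd2-/- cells (down). Chromosome 19, which holds Fth1, had medians over 481 genes of 0.17 (Pkd1-/-) and 0.28 (Pkd2-/-). Fth1 was thus level with its chromosome in Pkd1-/- cells (0.18) and below it in Pkd2-/- cells (-0.21), and the part of the chromosome in these values was not tested.

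**Figure D5:**
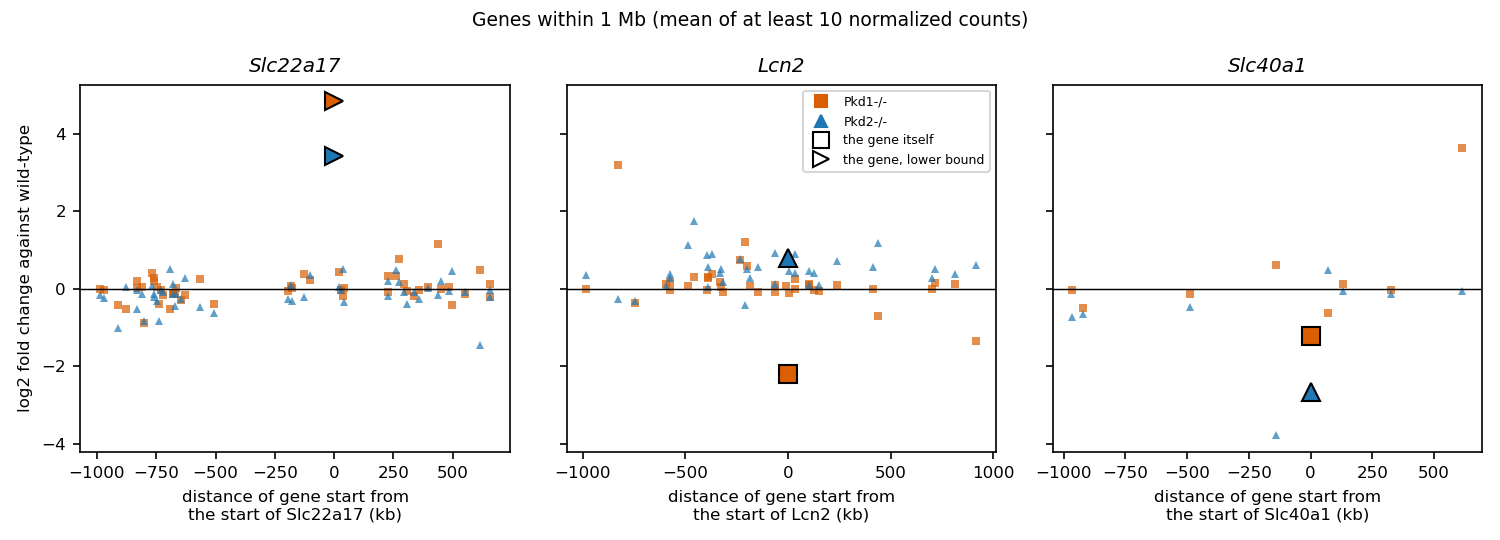
Log2 fold change against wild-type of genes within 1 Mb of Slc22a17, Lcn2 and Slc40a1 (mean of at least 10 normalized counts), by the distance of their start from the gene's start in kb; squares are Pkd1-/-, triangles Pkd2-/-, and large outlined symbols are the gene itself (right-pointing: lower bound). Around Lcn2 most triangles lie above 0, with a median of 0.46.

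The genes most like Slc22a17 over the 12 libraries were found by the root mean square difference of log2(normalized count + 1), centred on the wild-type mean, among 13702 genes with a mean of at least 10. They were Htatip2 (0.61), Zfp709 (0.88), Slc16a3 (0.92), Cd34 (1.07) and Misp (1.07). Htatip2 lay at 5-18 (wild-type), 382-423 (Pkd1-/-) and 327-371 (Pkd2-/-). Slc16a3, a lactate exporter, went from 69-124 to 2023-2638 and 733-756, and Cd34, a surface sialomucin, from 35-47 to 1475-1680 and 191-284. The order of the mutants was not shared by all 5. In Htatip2, Slc16a3 and Cd34, as in Slc22a17, every Pkd1-/- library lay above every Pkd2-/- library, in Zfp709 the mutants overlapped (52-80 and 35-65), and in Misp every Pkd1-/- library (745-800) lay below every Pkd2-/- library (839-1048).

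Most markers of other cells that handle iron or secrete LCN2 were near 0. The 6 neutrophil markers summed to 0 to 5 per library. Of 8 macrophage markers 4 were at 0 throughout and Ptprc reached at most 5, and the sums of 428 to 1000 came almost wholly from Csf1r and Cd68. Csf1r fell 1.84-fold in Pkd1-/- and 1.20-fold in Pkd2-/- cells (adjusted p = 1.44e-06 and 0.0422). The 3 endothelial markers summed to at most 9, and of 5 proximal tubule markers only Lrp2 had a mean of at least 10. Haemoglobin transcripts were uneven within genotypes, with Hbb-bs at 257, 0, 0 and 45 in wild-type, 77, 2, 287 and 2 in Pkd1-/- and 8, 0, 0 and 0 in Pkd2-/- cells, while Alas2 was at 12 or fewer. The part of these cells' RNA in the results was not tested.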

How the data were processed

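RNA of 12 mIMCD3 libraries was sequenced, and the authors' methods and processing notes name Trim Galore for trimming, HISAT2 for alignment to GRCm38 and HTSeq for counting over Ensembl genes. The deposited values, treated here as a score, are these counts divided by DESeq2 size factors and rounded by the authors, so they are not read counts and no count model was used. Rounding hides the worth of 1 read, so depth in reads is not given, and the strand setting of the counting is not given in the sources used here. All sample columns were used. Symbols and positions came from GENCODE M21, which held 47223 of the identifiers, while 419 were not found. Intervals and floors cover counting error or the spread between dishes only.

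Genotypes were compared on log2(normalized count + 1), with a mean of at least 1, by limma 3.58.1 (lmFit, eBayes with trend, R 4.3.3), with all 12 libraries in 1 model, two-sided p-values and Benjamini-Hochberg adjustment over all 18552 genes. Fold changes on this scale understate the change of low genes. "Rose" and "fell" mean an adjusted p under 0.05. Fold values are ratios of means. Errors beside log2 fold changes are SE, other errors are SD of 4. For a group with no library above 3 counts, a bound against 3 counts is given. The test was also run on simulated data with few changed genes, all changed by more than 1 log2 unit. That check does not cover smaller changes or the large shares of genes called here. The members and the gene lists were chosen with earlier results of these data known. Named were the members, list genes past both thresholds in either mutant (at most 4 per list and comparison), the most abundant gene of a list, neighbors of Slc22a17 within 100 kb, ferritin pseudogenes, overlapping genes, the 5 genes most like Slc22a17, and markers. Other genes named were chosen after their values were seen, and single values of 3 list genes are not reported here. Alternatives were pseudocounts of 0.5 and 5, no filter or a minimum mean of 10, a replicate block, only the 2 genotypes compared, upper-quartile scaling, robust eBayes, and leaving out each library. Python 3.11.15, numpy 2.4.6, pandas 2.3.3 and matplotlib 3.10.9 were used.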

Additional observations from a re-analysis of the deposited data

Results flagged for a closer look

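In 2 of the 30 groups of 4 libraries examined, 1 library stood apart from the other 3 by more than Dixon's 95% limit on the gap relative to the range. They were Slc11a2 in wild-type replicate 4, at 1686 against 1520 to 1541, and Fth1 in Pkd2-/- replicate 4, at 21118 against 23421 to 23493. Chance alone marks about 1 group in 20. Slc11a2 and Fth1 passed in Pkd2-/- cells also without these libraries.

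For 6 genes the mutants moved in opposite directions from wild-type and the difference between them passed limma's test. As the log2 fold change of Pkd2-/- over Pkd1-/- cells, the difference was 2.98 for Lcn2 (adjusted p = 3.68e-16), -0.39 for Tfrc (2.1e-06), -0.38 for Fth1 (9.15e-06), 1.52 for Steap1 (1.7e-11), 2.28 for Slc39a8 (2.1e-12) and 4.36 for Lrp2 (2.02e-12). In all 6 the libraries of the 3 genotypes did not overlap, and the share of all genes with such separation is not given here. With 1 clone per genotype, the targeted gene and the clone cannot be told apart.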

How the results depend on the processing

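No count of genes moved by more than 1.5 times under any alternative that was run. The members that passed numbered 4 to 5 of 9 in Pkd1-/- and 6 of 9 in Pkd2-/- cells, and 6 of 9 between the mutants, when single libraries were left out. Of the members' calls only that of Fth1 in Pkd1-/- cells was lost, in 4 of the 12 settings that leave out a library. Values that changed sign lay near 0 and passed the test in no setting: the log2 fold change of Ftl1 in Pkd1-/- cells ranged from -0.0166 to 0.0676 and that of Ireb2 in Pkd2-/- over Pkd1-/- cells from -0.0593 to 0.0295. The fitted value of Slc22a17 depends on the pseudocount, which is why a bound is given. Upper-quartile scaling shifted the median of all genes by -0.0090 to 0.0089. Same-numbered libraries did not in general deviate together (correlations -0.07 to 0.20, and 3 of 12 libraries correlated best with their own number). Those 3 were the replicates numbered 4. Their correlations were 0.20 (wild-type and Pkd2-/-), 0.17 (Pkd1-/- and Pkd2-/-) and 0.09 (wild-type and Pkd1-/-). Replicate 4 also had the highest mitochondrial share in each genotype (3.61%, 2.46% and 2.84%). What these libraries share was not tested, and the numbers were not treated as a pairing. With a replicate block, 5, 6 and 6 members and 28, 42 and 54 pathway genes passed in Pkd1-/- against wild-type, Pkd2-/- against wild-type and Pkd2-/- against Pkd1-/- cells, and Scara5 in Pkd1-/- cells did not (adjusted p = 0.0524). Rounding and a floor of 3 counts limit what can be said of genes with few counts, including Slc22a17 in wild-type cells.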
